A study of Homo sapiens with 28 samples.

Results

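The genes described here repair DNA double-strand breaks and the crosslinks between DNA strands, and they were followed in Kelly cells after transfection of 6 synthetic microRNAs. The 44 genes were a named list, matched by symbol in the deposited count table of 30887 rows. Each symbol occurred in a single row, and all 44 were among the 15058 genes abundant enough to test. They were placed in 8 groups by role: kinases and checkpoint (4 genes), end resection (6), the BRCA complex (4), strand exchange (8), chromatin signalling (4), end joining (8), the Fanconi core (8) and the Fanconi ID2 pair (2).

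Kelly is an established human neuroblastoma cell line that carries an amplified MYCN gene. All cells were reverse transfected with a 25 nM Dharmacon oligonucleotide and collected after 48 h, so the controls also went through transfection. Of the 28 poly(A) RNA libraries, 4 came from cells given a scrambled control (replicates 1, 2, 4 and 5 in the labels). The other groups of 4 received mimics of miR-99b-5p (replicates 2, 3, 4 and 7), miR-380-3p, miR-485-3p (replicates 1, 2, 3 and 5), miR-1283, miR-1915-3p and miR-100-3p. Where no numbers are given here, a group's replicates are 1 to 4. No separate damaging agent is named in the labels, no mock or untreated group was analysed here, and the mimic is the only stated difference between groups. Whether replicate libraries are separate cultures is not in the labels, so the p-values measure the spread between these libraries, which may be technical.

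Double-strand breaks are repaired along 2 main routes. In end joining, the Ku proteins hold the broken ends and a ligase complex seals them. In homologous recombination, nucleases trim the ends, BRCA2 and its partners load a strand exchange protein onto the exposed strand, and the sister chromatid serves as template. Ubiquitin ligases that mark the chromatin beside a break influence which route is taken, and the Fanconi proteins unhook crosslinked strands during replication. A microRNA pairs through its seed, bases 2 to 8 from its 5′ end, with messenger RNAs, usually in the 3′ UTR, and lowers their level or translation. Sequencing reads RNA level and not translation, and in bulk RNA fewer cells of a type cannot be told apart from less RNA per cell.

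The 6 mature sequences are shown because each has a different seed, given in capitals, from RefSeq on GRCh38.p14.
miR-99b-5p: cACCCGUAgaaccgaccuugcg
miR-380-3p: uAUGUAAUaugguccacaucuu
miR-485-3p: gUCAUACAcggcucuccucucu
miR-100-3p: cAAGCUUGuaucuauagguaug
miR-1915-3p: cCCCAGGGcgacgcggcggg
miR-1283: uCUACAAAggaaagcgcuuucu

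Heptamers complementary to these seeds were searched in each gene's longest annotated 3′ UTR and its coding sequence (GENCODE v29, GRCh38). The sequences below, all on the transcript strand, are in members that were lower under the matching mimic. The capitals mark the complementary bases.
XRCC4, miR-380-3p, chr5:83353355-83353361, 3′ UTR, plus strand: acaatttaATTACATacacagtg
XRCC4, miR-380-3p, chr5:83353472-83353478, 3′ UTR, plus strand: tgcctataATTACATaaattgta
XRCC5, miR-380-3p, chr2:216205474-216205480, 3′ UTR, plus strand: ctttgtatATTACATacatgctt
LIG4, miR-485-3p, chr13:108207937-108207943, 3′ UTR, minus strand: gaggaagtTGTATGAgacttaat
RAD51D, miR-100-3p, chr17:35096452-35096458, 3′ UTR, minus strand: tttgtcttCAAGCTTgttcccct
POLQ, miR-380-3p, chr3:121546456-121546462, coding, minus strand: aattcctcATTACATattcctca
POLQ, miR-380-3p, chr3:121537183-121537189, coding, minus strand: gtggatgaATTACATatgctggg
POLQ, miR-380-3p, chr3:121472135-121472141, coding, minus strand: ttaaaggcATTACATcctttacc
RNF168, miR-99b-5p, chr3:196470639-196470644, 3′ UTR, minus strand, hexamer: cgtcagaaACGGGTccagacga
RNF168, miR-99b-5p, chr3:196470554-196470559, 3′ UTR, minus strand, hexamer: ggtcagaaACGGGTccagatga
RNF168, miR-99b-5p, chr3:196470469-196470474, 3′ UTR, minus strand, hexamer: ggtcagaaACGGGTccagatga
The 3′ UTR heptamers shown are all those found in members called lower under the matching mimic. The POLQ and RNF168 entries are shown because the changes of RNF168, XRCC4 and POLQ below were the largest among the members under their mimics. Coding heptamers of other members called lower are not printed. The RNF168 entries match bases 2 to 7 of the microRNA only, and they lie 85 bases apart in near-identical surroundings.

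Sequencing depth, as the sum of expected counts, ran from 10.99 M to 23.3 M per library (M, mega). All 14 neuroblastoma markers examined, among them MYCN, GATA3 and DBH, were present in every library. Of 12 markers of other cell types, 10 were in the table. The myeloid gene LYZ, the endothelial genes PECAM1 and CDH5 and the liver gene ALB stayed at or below 0.188 unscaled CPM (counts per 1e6 counts) in every library, with 21 to 26 libraries at 0. VWF, COL1A1 and KRT19, markers of endothelium, fibroblasts and epithelium, were low but present, at 0.749 to 13.6 unscaled CPM. All 3 were called lower under miR-99b-5p, as were VWF under miR-485-3p and KRT19 under miR-380-3p, where COL1A1 was called higher. Their part in the members' changes was not tested. The libraries differed in their trend with gene GC content, measured as the slope of a library's log2 deviation per unit of GC fraction. It ran from -1.86 in miR-99b-5p replicate 2 to 2.75 in miR-485-3p replicate 2, with group means from -0.647 (miR-99b-5p) to 0.579 (miR-485-3p).

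In the control libraries the end-joining genes for Ku and its kinase were the most abundant members. Levels are given in CPM after scaling for library composition, and between genes only as CPM per kilobase of the deposited gene length, mean ± SD of 4 libraries. XRCC6 and XRCC5, the Ku70 and Ku80 subunits, stood at 365 ± 16.7 and 195 ± 3.28 CPM per kilobase. PRKDC, the kinase that Ku recruits, followed at 87.7 ± 7.52. RAD51C, a strand exchange helper, and FANCA, a Fanconi core subunit, came next at 61.0 ± 1.84 and 59.0 ± 4.03, and this pair overlapped within their SDs. The lowest member was RAD51B, another strand exchange helper, at 2.12 ± 0.326 CPM per kilobase. Other low members were FANCF (3.26 ± 0.247), FANCB (3.39 ± 0.33) and DCLRE1C (3.91 ± 0.556), whose protein Artemis opens hairpin ends. FANCF and FANCB did not differ beyond their spread. The BRCA complex ranged from 4.72 for BARD1 to 44.4 for BRCA1. POLQ, the polymerase of microhomology-mediated joining, varied most among the controls, with an SD of 19.4% of its mean.

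**Figure D1:**
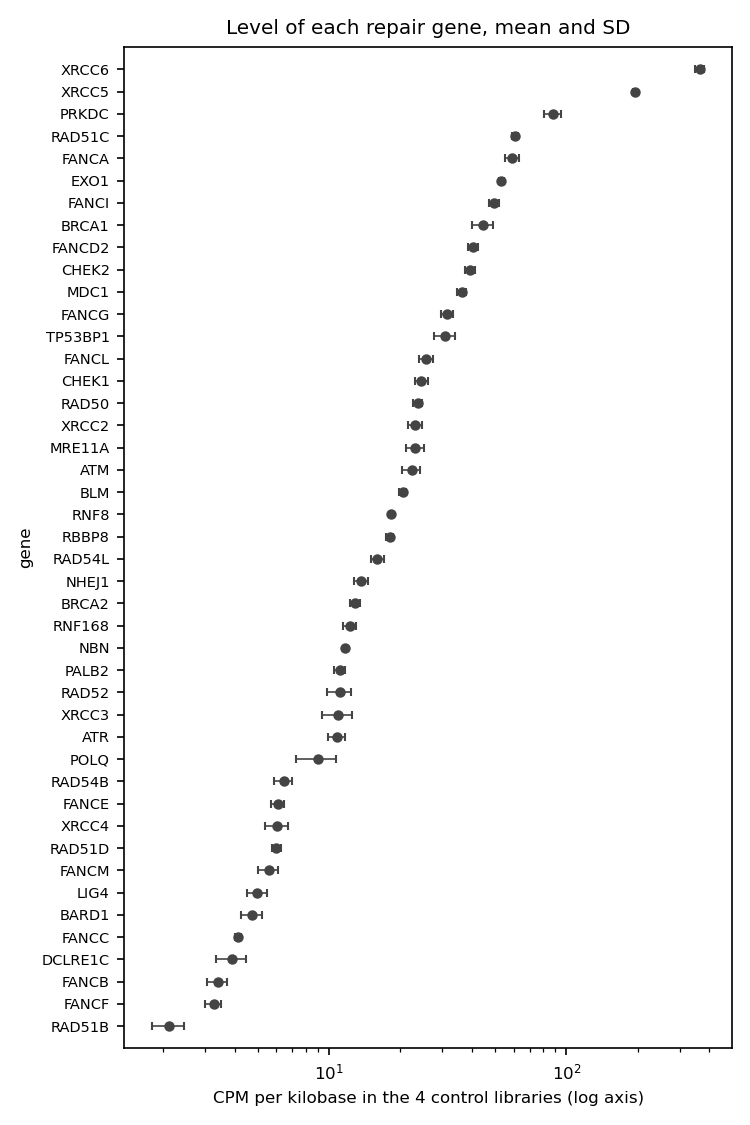
Level of each of the 44 repair genes in the 4 control libraries, in CPM per kilobase on a log axis (dots, mean; bars, SD). XRCC6, XRCC5 and PRKDC lie at the top and RAD51B lies at the bottom at 2.12.

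Of 264 comparisons of a member with the scrambled control, 24 passed the test, edgeR's quasi-likelihood test at a Benjamini-Hochberg adjusted p under 0.05 over all genes. These calls fell on 20 members, of which 16 were called under a single mimic and 4 under 2 mimics. The other 24 members were called under none. No called change reached 1 log2 unit. In 19 of the 24 calls all 4 mimic libraries lay on the same side of all 4 controls. This count comes from the same values as the calls and adds no support to them. Its share over all called genes was not computed. The comparisons share the same 4 control libraries, so they are not independent of each other. They are given side by side below.

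miR-99b-5p called 1 member higher and 3 lower, against 8.11% of all genes called higher and 8.48% called lower. This is 9.09% of the members against 16.6% of all genes in both directions, and the median log2 change was 0.035 over the members and -0.003 over all genes. With the GC slope of each library as a covariate the median of the members turned to -0.0548, with 16 members above 0 in place of 24. miR-380-3p called 1 member higher and 4 lower (background 5.6% higher, 5.25% lower), 11.4% of members against 10.9% of genes, with medians of 0.0 and -0.003 (members -0.0401 with the GC covariate). miR-485-3p called 7 higher and 4 lower (background 10.5% higher, 10.6% lower), 25.0% of members against 21.1% of genes, with medians of 0.071 and 0.025. miR-100-3p called 0 higher and 4 lower (background 2.9% higher, 3.05% lower), 9.09% of members against 5.96% of genes, with medians of -0.076 and -0.009. Under miR-1915-3p (background 0.0133% higher, 0.232% lower) and miR-1283 (background 0% higher, 0.0199% lower) no member was called by edgeR, DESeq2 or limma-voom. Neither mimic had a member at an unadjusted p under 0.05. The median of the members under miR-1283 was 0.007, and -0.021 with the GC covariate. The shares for miR-380-3p and miR-485-3p were near those of all genes, and no more is read from their number.

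**Figure D2:**
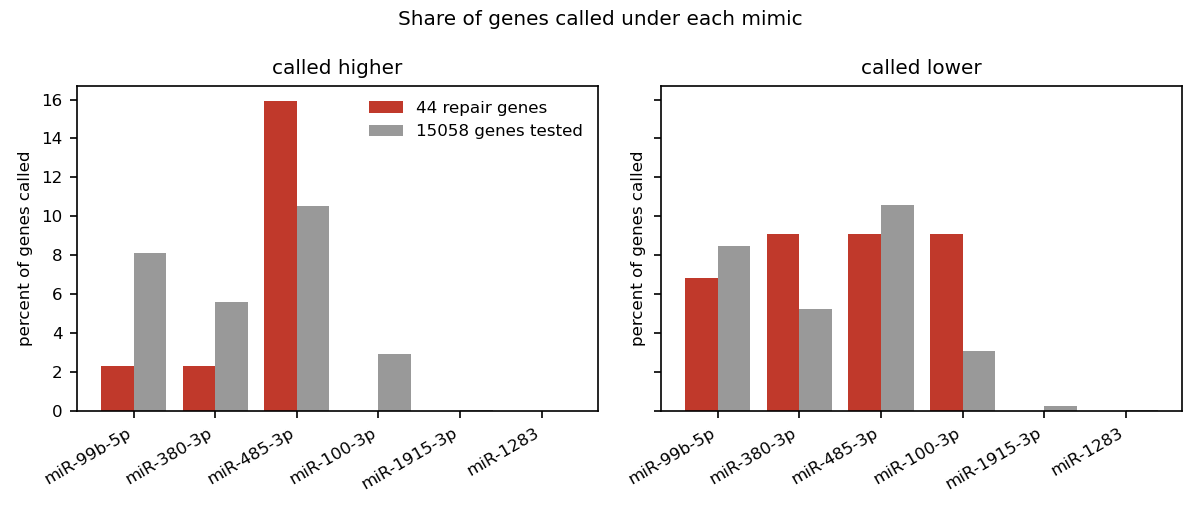
Percent of the 44 repair genes (red) and of all 15058 tested genes (grey) called higher (left) or lower (right) under each mimic at an adjusted p under 0.05. The red bars are highest for miR-485-3p on the left, at 15.9%, where all genes stand at 10.5%.

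**Figure D3:**
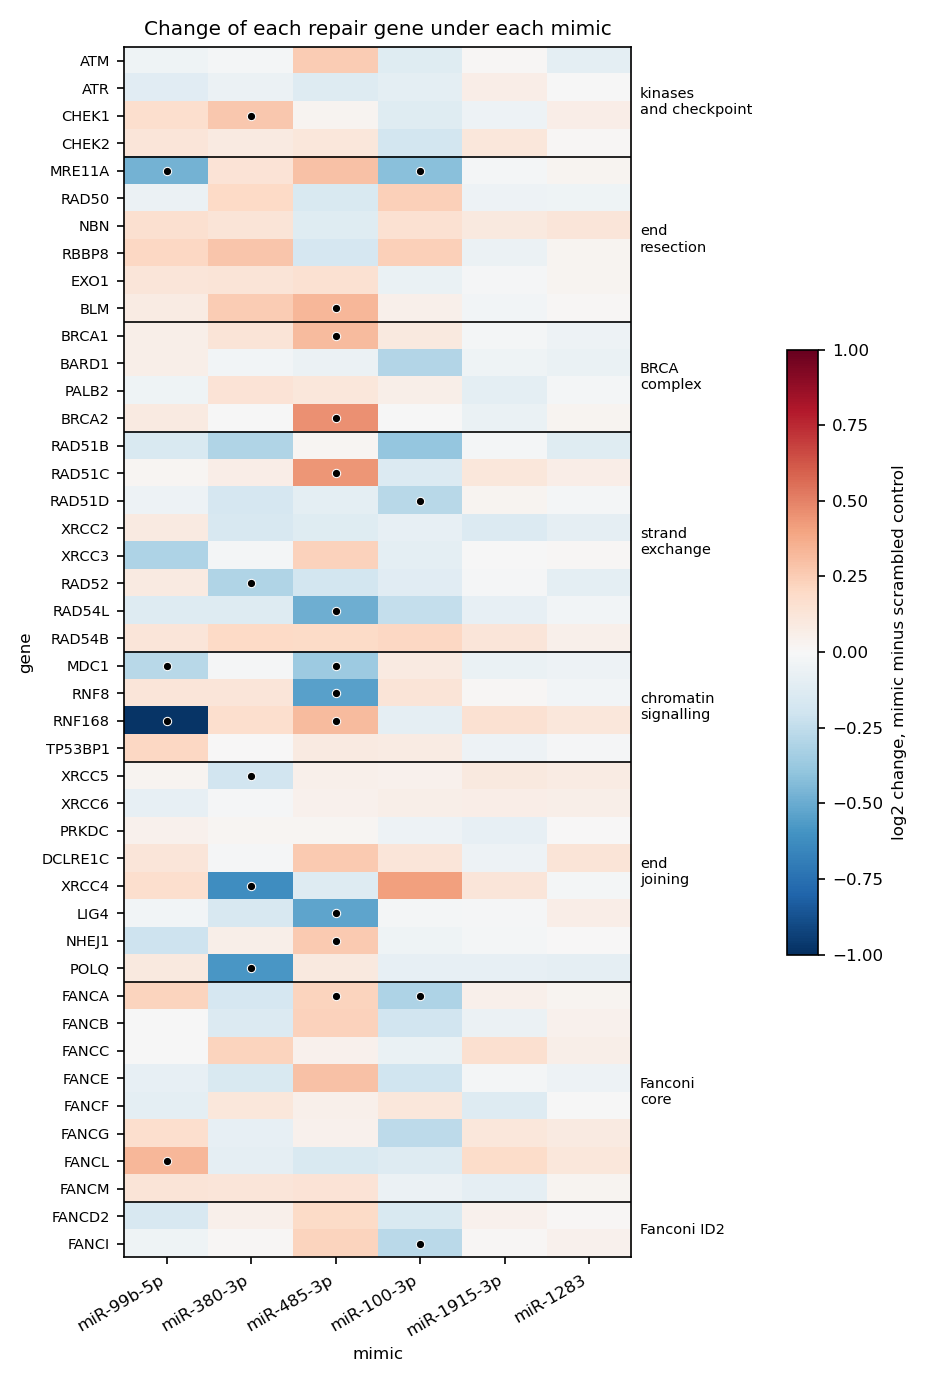
Log2 change of each repair gene (rows, by role) under each mimic (columns) against the scrambled control, with black dots on the 24 called changes. Called genes are scattered over the role groups, and the columns of miR-1915-3p and miR-1283 carry no dot.

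Chromatin signalling held the largest change. RNF168, the ubiquitin ligase that modifies histone H2A around breaks and so recruits TP53BP1 and the BRCA1 complex, was at 57.2, 58.3, 62.7 and 65.0 CPM in the controls. Under miR-99b-5p it was at 31.9, 25.6, 28.5 and 37.3 CPM. The highest of these lay well below the lowest control. RNF168 fell by 0.98 ± 0.10 on the log2 scale (estimate ± SE, -49.3%), with an adjusted p of 2.32e-08 in edgeR's test. It was also lower under miR-99b-5p than under each of the other 5 mimics, by 0.90 ± 0.10 (miR-100-3p) to 1.30 ± 0.10 (miR-485-3p), with adjusted p-values of at most 6.31e-08. Under miR-485-3p RNF168 moved the other way, to 70.4, 67.6, 81.2 and 85.0 CPM, a rise of 0.32 ± 0.09 (adjusted p = 0.013). That rise was lost without miR-485-3p replicate 3 or replicate 5 (adjusted p 0.0607 to 0.0665), whereas the fall under miR-99b-5p held in all 19 alternative analyses (-1.09 to -0.899).

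No heptamer for miR-99b-5p was found in the RNF168 3′ UTR of 3036 bases, but the 3 hexamers printed above were. At least 1 such UTR hexamer occurs in 6.72% of the 12514 tested genes with a UTR, and 3 or more in 7 genes (0.0559%). A match is a description of letters and does not show binding.

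RNF8, the ligase that acts just before RNF168, was lower under miR-485-3p. Its control values lay close together, at 32.7, 32.3, 32.2 and 31.9 CPM, and those of the mimic at 22.8, 21.3, 21.2 and 23.5 CPM. The groups were far apart relative to either spread. RNF8 fell by 0.54 ± 0.07 (-31.2%, adjusted p = 4.15e-06) and was lower than under each of the other 5 mimics, by 0.51 ± 0.07 to 0.67 ± 0.07. The call held in all 19 alternatives. Its 3′ UTR of 3980 bases held no heptamer or hexamer for miR-485-3p, and its coding sequence held 1 hexamer.

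MDC1, the scaffold that binds phosphorylated H2AX and recruits RNF8, was lower under 2 mimics. Controls were at 192, 187, 190 and 205 CPM. Under miR-485-3p the values were 161, 141, 133 and 168 CPM, a fall of 0.36 ± 0.08 (adjusted p = 0.00221). Under miR-99b-5p they were 170, 160, 136 and 168 CPM, a fall of 0.28 ± 0.08 (adjusted p = 0.0168), and this call was lost without miR-99b-5p replicate 4 or control replicate 5 (adjusted p 0.0578 to 0.0855). All libraries of both mimics lay below all controls. Compared directly, MDC1 under miR-99b-5p and miR-485-3p differed by 0.08 ± 0.08 and was not called (adjusted p = 0.509). MDC1 carries 1 miR-99b-5p heptamer in its coding sequence and no miR-485-3p heptamer or hexamer in either region.

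TP53BP1, which shields ends from resection, was not called under any mimic, with its highest estimate of 0.21 ± 0.10 under miR-99b-5p (adjusted p = 0.163). So MDC1 and RNF8 fell and RNF168 rose under miR-485-3p, while MDC1 and RNF168 fell under miR-99b-5p and RNF8 was not called there (0.12 ± 0.07). The direct comparison of these mimics called RNF8 (0.66 ± 0.07 higher under miR-99b-5p, adjusted p = 5.13e-08) and RNF168 (-1.30 ± 0.10, adjusted p = 3.16e-11).

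**Figure D4:**
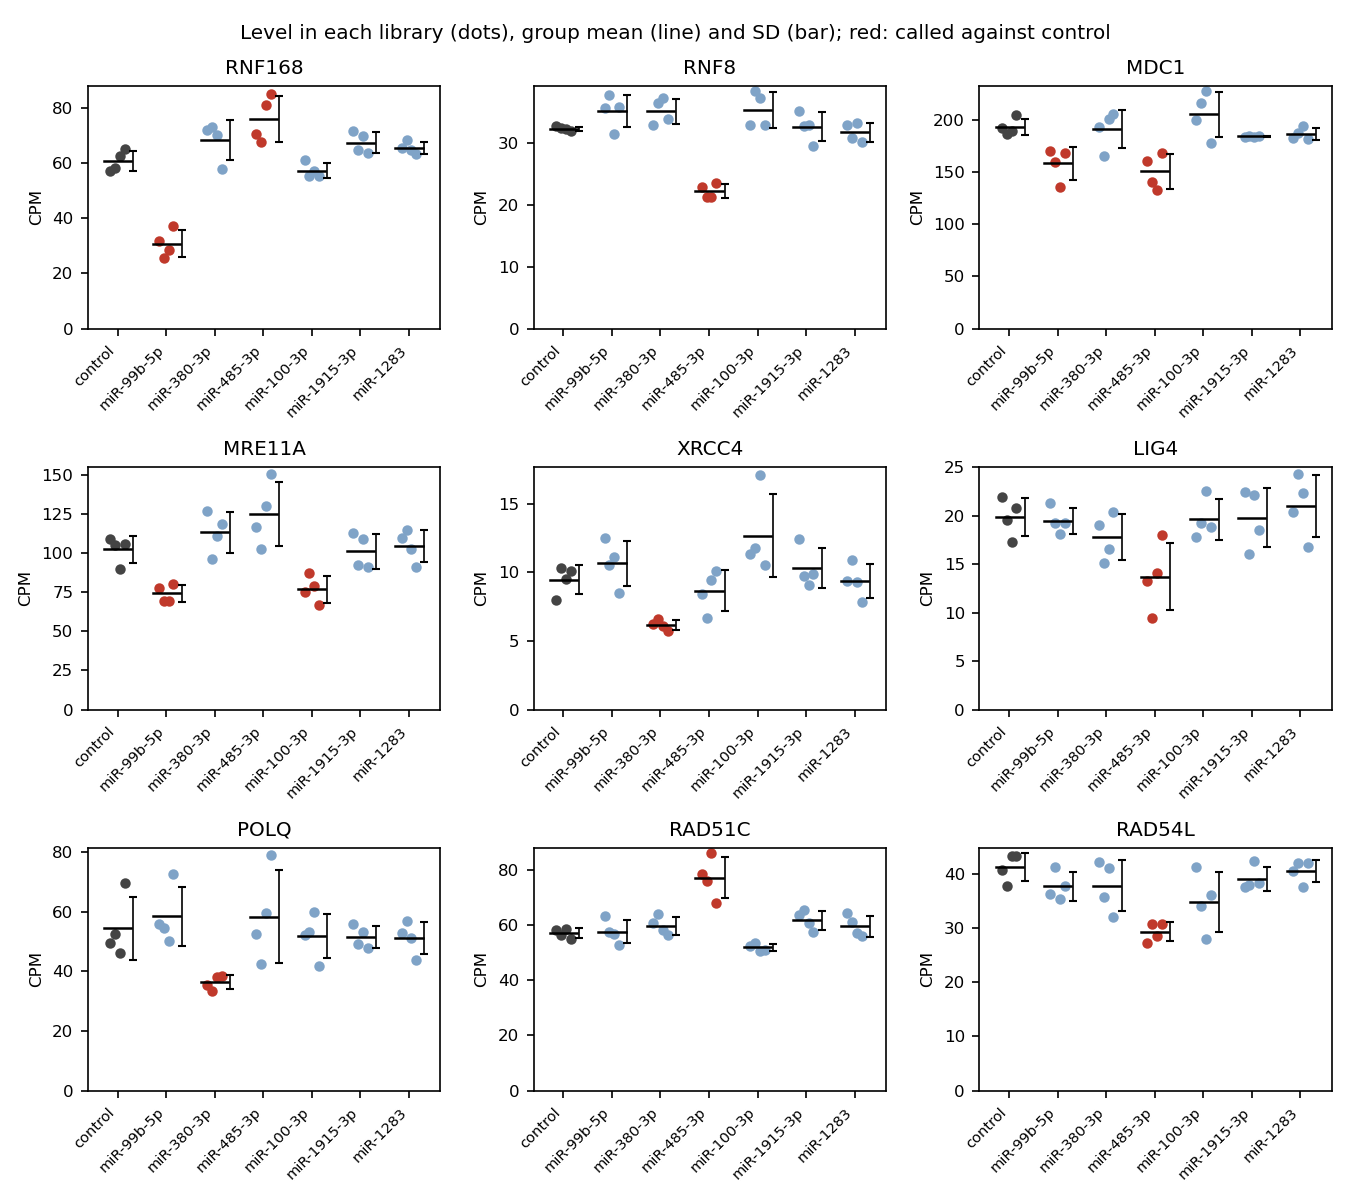
CPM of 9 repair genes in each library (dots), with group mean (line) and SD (bar), for the control (dark) and the 6 mimics; red marks groups called against the control. RNF168 under miR-99b-5p, XRCC4 and POLQ under miR-380-3p and RNF8 under miR-485-3p lie below every control library.

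In end joining, 3 of the 8 members were lower under miR-380-3p, where 5.25% of all genes were, and the Ku kinase and XRCC6 were not among them. XRCC4 is the scaffold that holds DNA ligase IV. It was at 7.96, 10.3, 9.49 and 10.1 CPM in controls and at 6.25, 6.56, 6.11 and 5.71 CPM under miR-380-3p. The mimic libraries varied little and all lay below the controls. XRCC4 fell by 0.62 ± 0.16 (-35.0%, adjusted p = 0.00922), and the call held in all 19 alternatives. It was also lower than under each of the other 5 mimics, by 0.50 ± 0.16 (miR-485-3p) to 1.03 ± 0.15 (miR-100-3p). XRCC4 under miR-100-3p was at 11.3, 11.8, 17.1 and 10.5 CPM, above every control library, but its estimate of 0.41 ± 0.15 did not pass (adjusted p = 0.114). Without the 4 libraries of most extreme GC slope, miR-100-3p replicate 4 among them, it was 0.51 and passed (adjusted p = 0.0244). Its 3′ UTR of 545 bases held both miR-380-3p heptamers printed above, each followed by an A.

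POLQ was at 49.5, 52.6, 46.0 and 69.7 CPM in controls and at 35.3, 33.5, 38.0 and 38.4 CPM under miR-380-3p. The mimic libraries were again all lower, while control replicate 5 stood above the other controls. POLQ fell by 0.58 ± 0.15 (-33.3%, adjusted p = 0.0114), and without control replicate 5 it fell by 0.44 with an adjusted p of 0.0764. It was lower than under each of the other 5 mimics, by 0.49 ± 0.15 (miR-1283, adjusted p = 0.0318) to 0.68 ± 0.15 (miR-99b-5p and miR-485-3p). Its coding sequence of 8178 bases holds the 3 heptamers printed above, a number reached by 10 of 12514 genes (0.0799%). Coding length was not matched in this share. Members with as many coding heptamers for another mimic were not called. PRKDC, with 3 for miR-485-3p, was at 0.02 ± 0.12, and ATR, with 3 for miR-100-3p, at -0.10 ± 0.13. FANCE and FANCA, each with 3 for miR-1915-3p, were at -0.02 ± 0.13 and 0.05 ± 0.08, but that mimic called only 0.246% of all genes. BRCA2, with 2 for miR-485-3p, was called higher. With 1 coding heptamer, RAD54L and LIG4 (miR-485-3p), MDC1 (miR-99b-5p) and FANCI (miR-100-3p) were called lower. The other members with 1 were not called. The part of coding heptamers in these changes was not tested. The 3′ UTR of POLQ holds no miR-380-3p heptamer and 2 hexamers.

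XRCC5 was at 639, 663, 642 and 644 CPM in controls and at 580, 553, 575 and 566 CPM under miR-380-3p. The groups did not overlap, and the change was small, a fall of 0.19 ± 0.06 (-12.1%, adjusted p = 0.0413). The call was lost when any of the 8 libraries was left out (adjusted p 0.0554 to 0.105). Against each of the other 5 mimics XRCC5 was lower by 0.22 ± 0.06 to 0.29 ± 0.06, with adjusted p-values of at most 0.00718. Its Ku partner XRCC6 stood at 797 ± 36.5 CPM in controls and was not called under miR-380-3p (-0.01 ± 0.06, adjusted p = 0.913).

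LIG4, the ligase held by XRCC4, was lower under miR-485-3p. Controls were at 21.9, 19.6, 17.3 and 20.8 CPM, and the mimic libraries at 13.3, 9.49, 14.1 and 18.0 CPM. Replicate 5 of the mimic overlapped the lowest control. The fall was 0.53 ± 0.15 (adjusted p = 0.0105), and the call held in all 19 alternatives, where the log2 change ran from -0.697 to -0.397. LIG4 holds 1 miR-485-3p heptamer in its 3′ UTR and 1 in its coding sequence. Its UTR also holds 1 miR-380-3p heptamer, and under miR-380-3p LIG4 was not called (-0.16 ± 0.14, adjusted p = 0.551), although it was with the GC covariate (-0.252, adjusted p = 0.0344).

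NHEJ1, the XLF protein that supports the ligase, rose by 0.26 ± 0.08 under miR-485-3p (adjusted p = 0.0257), from 24.0 ± 1.69 CPM. This call was lost without miR-485-3p replicate 1 or 3 or control replicate 1 or 2 (adjusted p 0.0598 to 0.114), and in 3 other alternatives (0.0593 to 0.151). PRKDC, XRCC6 and DCLRE1C were called under no mimic, but DCLRE1C passed under miR-485-3p without the 4 libraries of most extreme GC slope (0.326, adjusted p = 0.0385), as NHEJ1 did under miR-99b-5p (-0.272, adjusted p = 0.0282).

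In end resection, MRE11A (now MRE11), the nuclease of the complex that starts trimming, was lower under 2 mimics. Controls were at 109, 105, 90.1 and 106 CPM. Under miR-99b-5p MRE11A was at 78.0, 69.7, 69.4 and 80.1 CPM, a fall of 0.47 ± 0.11 (-27.7%, adjusted p = 0.00338) that held in all 19 alternatives. Under miR-100-3p it was at 75.0, 87.3, 78.8 and 66.8 CPM, a fall of 0.42 ± 0.11 (-25.2%, adjusted p = 0.0203). All 8 mimic libraries lay below the lowest control. The call under miR-100-3p was lost without its replicate 4 or control replicate 1, 2 or 5 (adjusted p 0.0562 to 0.0716). Between these mimics MRE11A differed by 0.05 ± 0.11, which was not called (adjusted p = 0.799), whereas each was called lower than every other mimic. The MRE11A 3′ UTR of 4547 bases held no heptamer for either microRNA and 1 hexamer for each. Under miR-485-3p MRE11A was not called (0.29 ± 0.11, adjusted p = 0.0602). There it passed with the GC covariate (0.000326), without the 4 libraries of most extreme GC slope (0.0163) and without miR-485-3p replicate 2 (0.0143).

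Its partners were not called with it. RAD50, the arm of the same complex, was at -0.06 ± 0.10 under miR-99b-5p and 0.24 ± 0.10 under miR-100-3p, and NBN, its regulatory subunit, at 0.16 ± 0.11 and 0.15 ± 0.11. None of these 4 passed the test, although RAD50 under miR-100-3p passed at 0.34 without the 4 libraries of most extreme GC slope (adjusted p = 0.0215). BLM, a helicase in long-range resection, was higher under miR-485-3p (0.33 ± 0.09, adjusted p = 0.00686), at 74.7, 63.2, 87.2 and 86.8 CPM against controls of 60.1 to 64.0. Replicate 2 overlapped the controls, and the call was lost without replicate 3 (adjusted p = 0.0739) and with only the 8 libraries of the comparison (0.0646). RBBP8, the nuclease cofactor CtIP, and BLM under miR-380-3p lay above every control (0.28 ± 0.10 and 0.25 ± 0.09) without passing (adjusted p = 0.0629 and 0.067). Both passed with the GC covariate (0.0127 and 0.00499), with only the 8 libraries (0.0498 and 0.0422) and without the 4 libraries of most extreme GC slope (0.0266 and 0.0171). EXO1, the long-range exonuclease, was called under no mimic, but under miR-485-3p it passed with the GC covariate (0.162, adjusted p = 0.024).

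**Figure D5:**
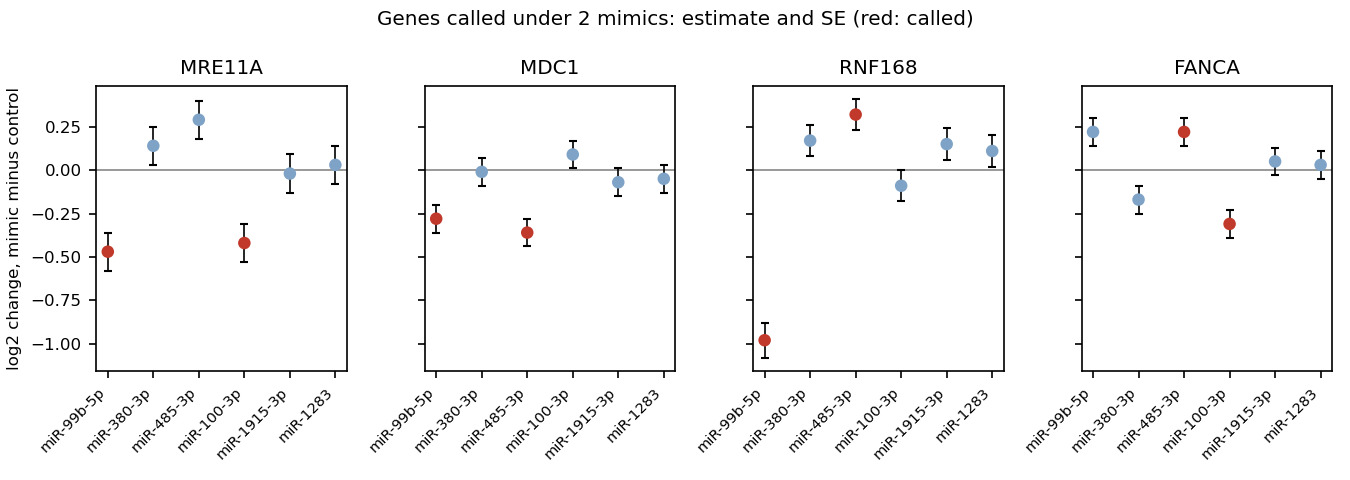
Log2 change (dots) and SE (bars) under each mimic for the 4 genes called under 2 mimics, with called values in red. MRE11A and MDC1 were lower under both, while RNF168 and FANCA were lower under 1 mimic and higher under the other.

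Among the strand exchange genes, miR-485-3p moved RAD51C and RAD54L in opposite directions. RAD51C was at 58.4, 56.4, 58.5 and 54.9 CPM in controls and at 78.4, 76.0, 86.2 and 68.2 CPM under miR-485-3p. Every mimic library was above every control, a rise of 0.44 ± 0.07 (35.5%, adjusted p = 3.99e-05). RAD51C was higher under miR-485-3p than under each of the other 5 mimics, by 0.32 ± 0.07 (miR-1915-3p) to 0.57 ± 0.07 (miR-100-3p). RAD54L, the motor protein that drives strand invasion, was at 40.7, 37.7, 43.3 and 43.3 CPM in controls and 27.2, 30.8, 28.5 and 30.7 CPM under the same mimic. It lay below every control and fell by 0.49 ± 0.10 (-29.0%, adjusted p = 0.000421). Both calls held in all 19 alternatives. RAD54L has 1 miR-485-3p heptamer in its coding sequence and none in its 3′ UTR of 191 bases, which holds 1 hexamer.

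RAD52, which anneals single strands, fell by 0.30 ± 0.09 under miR-380-3p (adjusted p = 0.0347), from 13.8 to 17.8 CPM in controls to 13.5, 12.3, 12.5 and 12.2 CPM. RAD52 holds no heptamer or hexamer for miR-380-3p in either region. Leaving out miR-380-3p replicate 2, 3 or 4, or control replicate 4 or 5, ended the call (adjusted p 0.0664 to 0.162), as did 3 other alternatives (0.0701 to 0.136). RAD51D, a further helper of strand exchange, fell by 0.28 ± 0.08 under miR-100-3p (adjusted p = 0.0415), at 17.6, 17.2, 13.5 and 15.7 CPM against 18.5 to 20.5 in controls. It was lost without miR-100-3p replicate 3 or 4 or any of the 4 controls (adjusted p 0.058 to 0.184), and in 6 other alternatives (0.0551 to 0.214). Its annotated 3′ UTR is 8745 bases long, and the miR-100-3p heptamer printed above lies at base 4495 of it. RAD51B, XRCC2, XRCC3 and RAD54B were called under no mimic, but RAD54B passed under miR-485-3p with the GC covariate (0.202, adjusted p = 0.0391). The 3′ UTR of XRCC3 held 4 heptamers for miR-1915-3p, and XRCC3 stood at 15.1 CPM in both groups (SE of the log2 change 0.16).

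Of the 4 BRCA complex genes, 2 were higher under miR-485-3p, where 10.5% of all genes were, and none was called against the control under the other mimics. BRCA2 was at 69.3, 51.8, 84.1 and 84.4 CPM against a control mean of 52.6 ± 2.59 (SD, n = 4), a rise of 0.46 ± 0.13 (adjusted p = 0.0143). BRCA1, the ligase that with BARD1 starts recombination, was at 172, 136, 192 and 213 CPM against 125 to 160, a rise of 0.32 ± 0.11 (adjusted p = 0.0439). In both genes replicate 2 of the mimic, the library with the GC slope of 2.75, lay within the control range. The BRCA2 call was lost without miR-485-3p replicate 3 or 5 (adjusted p 0.0694 to 0.0957) and with only the 8 libraries. The BRCA1 call was lost without any 1 of 6 libraries, namely miR-485-3p replicates 1, 3 and 5 and control replicates 1, 2 and 4 (adjusted p 0.0627 to 0.22), and in 5 other alternatives, limma-voom among them (0.0501 to 0.133). BARD1 and PALB2, the bridge between BRCA1 and BRCA2, were not called, at -0.06 ± 0.12 and 0.11 ± 0.08. BARD1 passed under miR-100-3p with the GC covariate (-0.366, adjusted p = 0.0027).

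The kinases ATM and ATR, which start the signal at breaks and at stalled forks, were called under no mimic, nor was CHEK2, the kinase below ATM. With the GC covariate ATM passed under miR-485-3p (0.25, adjusted p = 0.0384) and ATR under miR-99b-5p (-0.268, adjusted p = 0.00692). CHEK1, the kinase below ATR, rose by 0.27 ± 0.08 under miR-380-3p (adjusted p = 0.02). Its values were 52.6, 48.8, 50.3 and 54.9 CPM against 44.8, 42.7, 39.0 and 44.4 in controls, with no overlap. It was lost without replicate 4 of either group (adjusted p 0.0783 to 0.0822), and with library-size scaling or no filter on low counts (0.0553 to 0.09).

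Of the Fanconi core, FANCA moved under 2 mimics in opposite directions. Controls were at 103, 112, 121 and 116 CPM. Under miR-100-3p FANCA was at 101, 91.8, 75.8 and 95.2 CPM, all below the controls, and fell by 0.31 ± 0.08 (adjusted p = 0.0147). Under miR-485-3p it was at 135, 138, 132 and 123 CPM, all above the controls, and rose by 0.22 ± 0.08 (adjusted p = 0.0426). Under miR-99b-5p the estimate was also 0.22 ± 0.08, at an adjusted p of 0.0561. That difference passed with DESeq2 (0.0304), with only the 8 libraries (0.0491), with the GC covariate (0.000774) and without miR-99b-5p replicate 2 (0.0247) or control replicate 4 (0.0495). The direct difference between miR-485-3p and miR-100-3p was 0.53 ± 0.08 (adjusted p = 8.08e-06). The fall was lost without miR-100-3p replicate 3 or control replicate 4 (adjusted p 0.0607 to 0.0762), and the rise without miR-485-3p replicates 1, 2 or 3 or control replicates 1, 2 or 5 (adjusted p 0.0573 to 0.149). The fall was also lost with only the 8 libraries (0.0965), and the rise in 6 other alternatives (0.0548 to 0.16). FANCA holds no miR-100-3p heptamer or hexamer in either region.

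FANCL, the ubiquitin ligase of the core, rose by 0.33 ± 0.11 under miR-99b-5p (adjusted p = 0.038), at 56.8, 53.6, 53.5 and 38.5 CPM against controls of 37.6 to 43.7. Replicate 7 of the mimic lay within the controls. The call was lost without any 1 of 6 libraries, namely miR-99b-5p replicates 2, 3 and 4 and control replicates 2, 4 and 5 (adjusted p 0.0622 to 0.129), and in 5 other alternatives, limma-voom and the GC covariate among them (0.0505 to 0.107). FANCI, which with FANCD2 forms the clamp that FANCL ubiquitinates, fell by 0.27 ± 0.08 under miR-100-3p (adjusted p = 0.047), at 121, 136, 127 and 108 CPM against 138 to 155. It was lost without miR-100-3p replicates 1, 3 or 4 or control replicates 1, 2 or 5 (adjusted p 0.0779 to 0.143), and in 5 other alternatives (0.0611 to 0.113). Under miR-485-3p FANCI was at 0.22 ± 0.08 (adjusted p = 0.0576) and passed with the GC covariate (0.000618). FANCD2 was not called under miR-100-3p (-0.15 ± 0.08, adjusted p = 0.312). The members FANCB, FANCC, FANCE, FANCF, FANCG and FANCM were called under no mimic, but FANCE passed under miR-485-3p with the GC covariate (0.253, adjusted p = 0.0291), as did FANCD2 (0.2, adjusted p = 0.0147), which also passed under miR-99b-5p (-0.225, adjusted p = 0.0119).

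The antisense or overlapping partners of several called members may bear on their counts. Library preparation kept strand, but strand use in the counting is not given in the sources used here. On the opposite strand FANCA overlaps ZNF276, FANCL overlaps VRK2, FANCI overlaps POLG, MRE11A overlaps ANKRD49, RAD54L overlaps LRRC41, MDC1 overlaps MDC1-AS1 and RNF168 overlaps AC117490.2. NHEJ1, RAD51D and RAD52 overlap AC068946.1, RAD51L3-RFFL and AC004803.1 on the same strand. How much these partners contributed was not tested.

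For miR-1915-3p, member log2 changes lay between -0.14 and 0.18, and for miR-1283 between -0.12 and 0.13. SEs were 0.06 to 0.20, so changes of a size called elsewhere remain possible for members with large SEs, and the lack of calls does not show equal levels. RNF168 was at 71.5, 64.7, 69.8 and 63.6 CPM under miR-1915-3p and at 65.5, 68.5, 64.9 and 63.4 CPM under miR-1283, overlapping the controls in both. The titles of 2 of the 4 miR-1915-3p libraries carry a suffix of unstated meaning, and no member was called without them.

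All 15 pairs of mimics were compared directly, with p-values adjusted over all genes within a pair, and 129 member differences were called. The pair miR-485-3p and miR-100-3p had the most, 20 of 44, of which 13 were higher under miR-485-3p, where 28.5% of all genes were called. miR-99b-5p and miR-485-3p followed with 16 (33.5% of all genes), and miR-1915-3p and miR-1283 had 0 (0.252% of all genes). Members called between miR-485-3p and miR-100-3p included MRE11A (0.71 ± 0.11 higher under miR-485-3p) and XRCC4 (-0.54 ± 0.15).

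Of the members called lower, 2 of 4 under miR-380-3p, 1 of 4 under miR-485-3p and 1 of 4 under miR-100-3p had a matching heptamer in the 3′ UTR, and 0 of 3 under miR-99b-5p. UTR heptamers were found in 8, 5 and 4 of the 44 members for miR-380-3p, miR-485-3p and miR-100-3p (18.2%, 11.4% and 9.09%), against 14.9%, 14.2% and 10.4% of 12514 genes. For miR-99b-5p the numbers were 0 members and 1.21% of genes. Coding heptamers were found in 25.0% of members for miR-100-3p (10.1% of genes), 20.5% for miR-485-3p (10.4%), 18.2% for miR-380-3p (7.16%) and 6.82% for miR-99b-5p (1.71%). Coding lengths were not matched in these shares. Of the 8 members with a UTR heptamer for miR-380-3p, 2 were called lower. Of those not called, NBN, FANCF, RAD54B and PRKDC, each with 1, had estimates of 0.13 ± 0.11, 0.11 ± 0.09, 0.20 ± 0.10 and 0.02 ± 0.12. LIG4 and RAD51D, also with 1 each, were at -0.16 ± 0.14 and -0.17 ± 0.08. Over all genes, those with a UTR heptamer were called lower more often than those without, 40.8% against 8.90% for miR-99b-5p, 14.6% against 4.14% for miR-380-3p, 28.2% against 8.20% for miR-485-3p and 9.37% against 2.76% for miR-100-3p. The longest annotated UTR may not be the one used in Kelly cells.

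Promoter sequences around an annotated start site (RefSeq, GRCh38.p14) were matched for 39 of the 44 members. That start may not be the one used in Kelly cells. The windows of RAD51B, RBBP8, FANCC, RAD52, CHEK1, RAD50, ATM, RAD51D, MDC1, CHEK2 and POLQ lie inside the annotated gene. The 35116 promoters set beside them were not limited to tested genes. An E2F-like motif (TTTCCCGC, TTTGGCGC, TTTCGCGC or TTTGGCGG, either strand) was present in 6 of 39 (15.4%), against 3.35% of 35116 promoters. The 6 were EXO1, FANCC, FANCD2, RNF168, XRCC2 and XRCC6, and apart from RNF168 none of them was called under any mimic. The CCAAT box (CCAAT) was in 43.6% of member promoters and 34.6% of all, and the cell cycle motif TTTGAA in 10.3% and 15.2%.

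The wider pathway was read from lists that were written with earlier results known. Counts are to be read against the shares of all genes, which were 8.11% higher and 8.48% lower under miR-99b-5p, 5.6% and 5.25% under miR-380-3p, 10.5% and 10.6% under miR-485-3p, and 2.9% and 3.05% under miR-100-3p. Of 44 other crosslink and strand-break repair genes, 3 were called higher and 2 lower under miR-99b-5p, 1 and 0 under miR-380-3p, 8 and 4 under miR-485-3p, and 1 and 3 under miR-100-3p. The largest of these shares was 18.2% higher under miR-485-3p, and the shares under miR-99b-5p, 6.82% and 4.55%, were below those of all genes. BRCC3, the deubiquitinase of the BRCA1-A complex, fell by 0.82 ± 0.12 under miR-485-3p (adjusted p = 2.11e-05). PARP1, which senses strand breaks, fell under miR-485-3p (by 0.29 ± 0.05) and miR-100-3p (by 0.36 ± 0.05). RPA2, a subunit of the single-strand binding protein, rose by 0.40 ± 0.06 under miR-485-3p and fell by 0.24 ± 0.06 under miR-100-3p.

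Of 39 DNA replication genes, 15 were higher and 3 lower under miR-485-3p, and 0 and 8 under miR-100-3p, beside 3 and 1 under miR-99b-5p and 2 and 0 under miR-380-3p. These are 38.5% higher and 7.69% lower under miR-485-3p, and 20.5% lower under miR-100-3p. The thymidylate synthase gene TYMS fell by 1.55 ± 0.07 under miR-100-3p and by 0.91 ± 0.07 under miR-485-3p. Of 25 mitosis genes, 5 were higher and 2 lower under miR-485-3p, 0 and 2 under miR-99b-5p, and none passed under miR-380-3p or miR-100-3p. The share higher under miR-485-3p was 20.0%. The replication and mitosis counts are given because many repair genes are transcribed with the cell cycle; their part in the members' changes was not tested.

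Of 18 other checkpoint genes, 3 were higher and 1 lower under miR-99b-5p, 1 and 2 under miR-380-3p, 5 and 2 under miR-485-3p, and none passed under miR-100-3p. The shares higher were 16.7% under miR-99b-5p and 27.8% under miR-485-3p. WEE1, which restrains mitotic entry, rose by 0.65 ± 0.09 under miR-99b-5p and 0.64 ± 0.09 under miR-485-3p. CDC25A of the same list went opposite ways, at -0.55 ± 0.07 under miR-99b-5p and 0.47 ± 0.07 under miR-485-3p. MYCN was at 5053 ± 206 CPM in controls, and it was lower under miR-99b-5p (3429 ± 227), miR-380-3p (4050 ± 360) and miR-1915-3p (3835 ± 188) and higher under miR-100-3p (6380 ± 496). Of all 14 neuroblastoma markers, 5 were lower and 1 higher under miR-99b-5p and under miR-380-3p, 6 lower under miR-485-3p, 4 lower and 1 higher under miR-100-3p and 1 lower under miR-1915-3p. The shares lower were 35.7%, 35.7%, 42.9%, 28.6% and 7.14% in that order, beside 0.232% of all genes for miR-1915-3p. No gene of the repair, checkpoint, replication or mitosis lists was called under miR-1915-3p or miR-1283 by edgeR.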

How the data were processed

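Polyadenylated RNA of Kelly cells was sequenced from TruSeq Stranded libraries, per the labels' protocols. The authors aligned reads to hg19 with STAR, per the submitters' processing notes; the version, counting tool, annotation and meaning of the filtering are not given in the sources used here. The authors deposited expected counts for each gene, of which 10.2% were not whole, beside a gene length, per the file headers.

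Expected counts were rounded and tested with edgeR 4.0.16 in R 4.3.3 (filterByExpr, TMM, quasi-likelihood test, 28 libraries, 21 residual degrees of freedom). Tests were two-sided, with Benjamini-Hochberg adjustment over 15058 genes and calls at adjusted p under 0.05. All adjusted p-values are from this test unless another tool is named. The SEs given were derived from it, as the absolute log2 change divided by the square root of the F statistic. CPM uses effective library sizes. Precision is set by the spread between libraries within groups of 4. The coefficient of variation from edgeR's common dispersion, pooled over all genes and the 28 libraries, was 12.2%. Within groups, all 42 pairs of libraries differed beyond sampling noise (chi-square per gene at least 2.89, where noise alone gives about 1).

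Seed heptamers were searched in the longest 3′ UTR and its coding sequence, leaving out very short UTRs. The members, roles, lists and rule were chosen with earlier results of these data known. By the rule, per-library values are given for called members past 0.5 log2 units without overlap. Further called members are shown too. Up to 3 called genes were eligible from each other list, and MYCN was always given; some items are not reported here. Alternatives were DESeq2 1.42.0, limma-voom (limma 3.58.1), other scalings and filters, a replicate block, only the 8 libraries of a comparison, a GC covariate and leaving out libraries. Leaving out the 4 libraries of most extreme GC slope was chosen after seeing the data. Of the markers of other cell types, 2 were not analysed here.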

Additional observations from a re-analysis of the deposited data

How the results depend on the processing

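No called member changed direction in any alternative. RNF168 and MRE11A under miR-99b-5p, XRCC4 under miR-380-3p, and RAD51C, RAD54L, MDC1, RNF8 and LIG4 under miR-485-3p stayed called in all 19 alternatives run for each. The number of members called was less steady. Leaving out 1 library gave 2 to 5 for miR-99b-5p (4 with all libraries; 2 without miR-99b-5p replicate 4 or control replicate 5), 2 to 5 for miR-380-3p (5; 2 without its replicate 4 or control replicate 4 or 5, 3 without its replicate 3), 5 to 12 for miR-485-3p (11; 5 without its replicate 3) and 1 to 4 for miR-100-3p (4; 1 without its replicate 3 or 4 or control replicate 1, 2 or 5, and 2 without control replicate 4). It gave 0 throughout for miR-1915-3p and miR-1283, and 109 to 146 for the 129 differences between mimics. With no filter on low counts, 2 members were called under miR-380-3p and 2 under miR-100-3p. With only the 8 libraries of a comparison, 6 were called under miR-485-3p, 1 under miR-100-3p and 79 between mimics; this fit has fewer samples. With the GC slope as a covariate, 8 were called under miR-380-3p (3 higher, 5 lower), 18 under miR-485-3p (14 higher, 4 lower) and 220 between mimics; the cause was not tested. Without the 4 libraries of most extreme GC slope, 4 higher and 2 lower were called under miR-100-3p in place of 0 and 4 (RAD50, RBBP8, RAD54B and XRCC4 higher), 14 under miR-485-3p and 7 under miR-380-3p. Median-of-ratios and library-size scaling left 2 under miR-100-3p each. Upper-quartile scaling gave 4 higher and 4 lower under miR-485-3p in place of 7 and 4, and library-size scaling gave 0 higher and 3 lower under miR-99b-5p and 0 and 4 under miR-380-3p. Of the member and mimic pairs not called, 25 passed in at least 1 alternative, 14 of them with the GC covariate. The scalings moved the median of all genes by less than 0.1 on the log2 scale. Whether replicate numbers pair the libraries was not tested. Deviations of same-numbered libraries correlated from -0.604 to 0.831 over 67 pairs (mean 0.107, against -0.0255 for different numbers). A replicate block gave 11 members called under miR-485-3p, 6 under miR-99b-5p, 4 under miR-380-3p, 3 under miR-100-3p and 148 between mimics; with it CHEK1 and TP53BP1 passed under miR-99b-5p (adjusted p = 0.0272 and 0.0171), and RAD52 under miR-380-3p (0.0701) and RAD51D under miR-100-3p did not. Replicate 7 of miR-99b-5p has a number of its own and adds nothing to the blocked fit. Member SEs of 0.06 to 0.20 log2 units limit which changes could be called at this depth and spread.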
